A study of Bos taurus with 16 samples.

Results

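The genes described here are the amino acid carriers of bovine day 8 blastocysts and bovine embryonic stem cells (bESCs), taken as every gene whose name places it in the solute carrier families SLC1A, SLC3A, SLC6A, SLC7A, SLC36A, SLC38A or SLC43A. Such a name was carried by 58 genes of the deposited data, and 44 of them had at least 10 reads and an FPKM above 0.5 in at least 2 of the 16 libraries. FPKM is the number of fragments on a gene divided by its counted length and by the size of the library, so it allows levels to be compared between genes. The 44 members were 5 of 7 SLC1A genes, 2 of 2 SLC3A, 9 of 19 SLC6A, 11 of 12 SLC7A, 4 of 4 SLC36A, 10 of 11 SLC38A and 3 of 3 SLC43A genes. The 14 genes left out were SLC1A2, SLC1A7, SLC6A2, SLC6A5, SLC6A7, SLC6A12, SLC6A13, SLC6A14, SLC6A16, SLC6A17, SLC6A18, SLC6A19, SLC7A10 and SLC38A8. Just inside the limit were SLC7A14 and SLC38A3, which passed in 2 libraries each with a highest FPKM of 0.819 and 1.05. Just outside were SLC6A16, which passed in 1 library at an FPKM of 1.29, and SLC6A14, a carrier of neutral and cationic amino acids, which had at least 10 reads in 9 libraries but an FPKM of at most 0.490. Of the members, 16 passed in all 16 libraries, 11 passed only through the bESC libraries and 5 only through the blastocysts.

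Amino acids cross cell membranes through carriers that differ in what they move and in what drives them. The SLC1A carriers take up acidic amino acids or exchange small neutral ones, the SLC6A carriers use sodium and chloride to take up glycine, proline, taurine, creatine and transmitters, and the SLC38A carriers take up glutamine, alanine and related amino acids with sodium. The SLC7A family holds carriers of cationic amino acids and light chains that work as exchangers once joined to an SLC3A heavy chain, while SLC36A and SLC43A carriers move small neutral or branched-chain amino acids with protons or by diffusion. In the early embryo such carriers supply protein synthesis and osmolytes, and amino acids that reach the lysosome are read there by mTORC1, the kinase complex that couples growth to nutrients. Not every member moves amino acids: SLC6A3 and SLC6A4 carry dopamine and serotonin, SLC6A6 taurine, SLC6A8 creatine and SLC43A3 purine nucleobases.

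The study asked how LY2955303, an inhibitor of the retinoic acid receptor RARγ, acts on bovine embryos made by in vitro fertilization and on bESCs. All samples are labelled as wild type and as 1 batch, and each blastocyst library was made from 1 whole embryo with a SMART-Seq kit. The first blastocyst table held 3 embryos cultured with 10 μM LY2955303 (LY10) from the 2-cell stage and 3 with its vehicle (DMSO). The second held 2 embryos exposed from the 2-cell stage (cell2_LY), 2 exposed from the 16-cell stage (cell16_LY) and 2 vehicle embryos (LY_DMSO), and its labels give no dose. The bESC table held 2 libraries whose treatment is labelled as the culture medium TiFX (bESC_tifx) and 2 with LY2955303 (bESC_LY), from cells grown on mouse feeder layers. The labels of bESC_tifx name no vehicle, whereas the text of the study calls its bESC control DMSO. The labels do not say whether the bESC libraries came from separate cultures, so their p-values measure only the spread between these libraries. Nor is it stated whether the embryos of a group came from separate dishes or fertilization rounds, so blastocyst p-values measure the spread between embryos. In a whole embryo, fewer cells of a type and less RNA per cell cannot be told apart.

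Depth was 7905768 to 17343140 reads on genes in the blastocysts and 29055323 to 31230432 in the bESC libraries. The summed FPKM of 15 trophectoderm markers was 3311 to 10748 in the blastocysts and 205 to 491 in the bESC libraries, where PAG2, PAG11 and IFNT2 were at 0. The summed FPKM of 9 epiblast markers was 215 to 789.6 in the blastocysts and 2589 to 2729 in the bESC libraries. DMSO 3 stood apart from the other 5 libraries of its table on the second principal component of all genes (105.5, against -58.0 to 1.06), and on the first it lay at -29.9, nearer to LY10 (-89.8 to -52.4) than to DMSO 1 and DMSO 2 (86.0 and 139). In the second blastocyst table LY_DMSO 2 (-88.9) and cell2_LY 1 (102) lay at opposite ends of the first component, with the other 4 embryos at -29.7 to 32.3. Calls that were lost when 1 of these libraries was left out are named with each gene. In cell2_LY 1 the library size behind the authors' FPKM was 1.23 times the reads on genes, against 0.949 to 1.07 times in the other 15 libraries. Gene positions are those of the first blastocyst table, and for 41 of the 44 members they equal the RefSeq positions on ARS-UCD2.0. The bESC table lists its genes by Ensembl identifiers instead and gives many of them another counted length. These positions, and the overlaps named with them, were not checked for the bESC table. Another gene overlaps 15 of the members, 14 of them from the opposite strand, and the strand used in counting is not stated, so reads of such pairs cannot be told apart.

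In blastocysts the carriers at the highest level were SLC1A1, SLC3A2, SLC7A4, SLC38A2 and SLC38A6, and they ranked in this order by mean FPKM in both blastocyst tables. SLC1A1, the sodium-driven carrier of glutamate, aspartate and cysteine (NCBI Gene 282353, chromosome 8, 39929866 to 40002800), had an FPKM of 27.6, 29.7 and 51.0 in DMSO, 76.3, 96.5 and 55.1 in LY10, 83.5 and 84.4 in LY_DMSO, 55.8 and 74.1 in cell2_LY and 71.3 and 86.1 in cell16_LY. SLC3A2, the heavy chain that carries the SLC7A light chains to the cell surface (NCBI Gene 507107, chromosome 29, 41158503 to 41199498), had 20.3, 11.3 and 16.8 in DMSO, 50.4, 114 and 40.4 in LY10, 92.3 and 141 in LY_DMSO, 40.7 and 39.9 in cell2_LY and 38.4 and 71.5 in cell16_LY. SLC7A4, a member of the cationic carrier branch whose own transport is not settled (NCBI Gene 504923, chromosome 17, 72373077 to 72376837), had 20.8, 11.6 and 40.2 in DMSO, 50.4, 57.1 and 34.4 in LY10, 54.5 and 20.2 in LY_DMSO, 87.9 and 63.4 in cell2_LY and 68.5 and 70.4 in cell16_LY. The DMSO embryos held the 3 lowest values of SLC1A1 and of SLC3A2, while LY_DMSO 2 held the highest of SLC3A2, so the vehicle embryos of the separate tables lay far apart for this gene. SLC7A4 was lowest in DMSO 2 (11.6), followed by LY_DMSO 2 (20.2) and DMSO 1 (20.8).

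SLC38A2, a sodium-driven carrier of glutamine and other neutral amino acids (NCBI Gene 338044, chromosome 5, 33850777 to 33865223), had a lowest, median and highest FPKM of 21.4, 32.3 and 55.2 over the 12 blastocysts. SLC38A6, of the same family, had 14.3, 21.1 and 27.4. SLC38A9, the lysosomal protein that reports arginine to mTORC1, had 6.23, 11.8 and 18.1, and SLC7A7, a light chain for cationic amino acids, 4.11, 10.9 and 26.5. SLC38A6 varied least among these, and its highest embryo was within 2 times its lowest. The summed FPKM of the 44 members was 188 to 226 in DMSO, 286 to 446 in LY10, 436 to 445 in LY_DMSO, 307 to 395 in cell2_LY and 319 to 410.2 in cell16_LY. The 5 highest members of a library made up 49.1% to 74.6% of this sum, with a median of 70.7%, so that most other carriers were present at a few FPKM or less. By family, the median share over the 12 blastocysts was 25.2% for SLC7A, 25.0% for SLC1A, 24.1% for SLC38A, 13.6% for SLC3A, 3.65% for SLC6A, 1.69% for SLC36A and 1.22% for SLC43A.

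**Figure D1:**
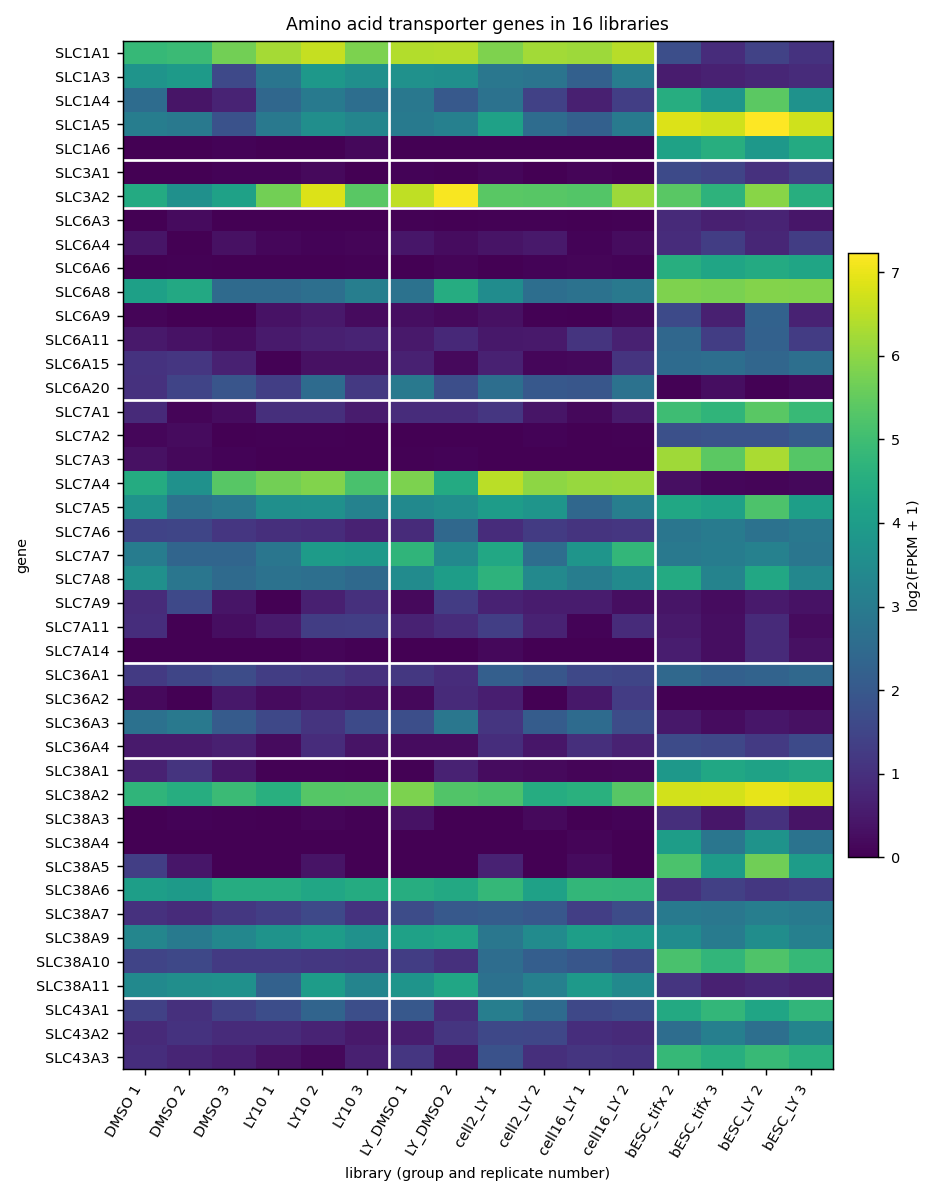
Level of 43 of the 44 amino acid transporter genes (rows, grouped by family) in each of the 16 libraries (columns), as log2(FPKM + 1) on a colour scale. SLC1A1, SLC3A2, SLC7A4, SLC38A2 and SLC38A6 stand out in the 12 blastocysts, and SLC1A5, SLC38A2, SLC7A3 and SLC6A8 in the 4 bESC libraries.

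The carriers at the highest level differed in the bESC libraries, where SLC1A5, SLC38A2, SLC7A3 and SLC6A8 led by mean FPKM. Their table was normalized separately from those of the blastocysts, so the levels are set side by side with no test, and the counted length of a gene differed by more than 2 times between the tables in 13 members. For that reason each separation was also read in RPM, the reads scaled to the size of the library without the length. RPM leaves out the length itself, but reads were still counted over different stretches of such a gene, so it does not remove the whole difference. The 13 members with such a length difference were SLC1A1, SLC6A20, SLC7A1, SLC7A2, SLC7A4, SLC7A11, SLC36A1, SLC38A1, SLC38A4, SLC38A9, SLC38A11, SLC43A1 and SLC43A2. On FPKM, 29 of 44 members (65.9%) lay higher in every bESC library than in every blastocyst, 7 (15.9%) lay lower and 8 overlapped, where 50.5% of the 13234 genes above 0.5 FPKM in at least 2 libraries lay higher and 14.7% lower. In RPM 25 members (56.8%) lay higher and 9 (20.5%) lower, against 42.5% and 18.8% of those genes, and 25 members were higher and 7 lower on both scales. The limit of reads and FPKM itself largely set the side of 16 of these members, the 11 that passed it only through bESCs, of which 11 lay higher on FPKM and 10 in RPM, and the 5 that passed it only through blastocysts, of which 3 lay lower on both scales. The limit was passed only through bESCs by SLC1A6, SLC3A1, SLC6A3, SLC6A4, SLC6A6, SLC6A9, SLC7A2, SLC7A3, SLC7A14, SLC38A3 and SLC38A4. Only through blastocysts it was passed by SLC6A20, SLC7A4, SLC7A9, SLC36A2 and SLC36A3. Of the 28 members that passed it in both, 18 (64.3%) lay higher and 4 (14.3%) lower on FPKM, and 15 (53.6%) and 6 (21.4%) in RPM. Among the 10528 genes that passed in both, 46.8% lay higher and 15.1% lower on FPKM, and 38.4% and 20% in RPM. These counts are a description, and nothing particular to the carriers is read from them. SLC6A4, SLC7A6 and SLC43A2 were higher in bESCs on FPKM and overlapped in RPM, and SLC38A9 overlapped on FPKM and was lower in RPM. SLC36A1, a proton-driven carrier of small amino acids at the lysosome, was higher in bESCs on FPKM and lower in RPM.

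Among the exchangers of small neutral amino acids, SLC1A5, which takes up glutamine (NCBI Gene 282355, chromosome 18, 53864326 to 53875875), had an FPKM of 2.53 to 16.7 in the blastocysts and 103 to 149 in the bESC libraries. It was the highest member there by mean FPKM, but SLC38A2 lay above it in bESC_LY 3 and bESC_tifx 3. SLC1A4, the relative of SLC1A5 for serine and alanine, had 0.337 to 6.96 in the blastocysts and 11.8 to 41.3 in the bESC libraries. The acidic amino acid carriers SLC1A1 and SLC1A6 lay the other way from each other, with SLC1A1 at 0.877 to 2.32 in bESCs, below every blastocyst, and SLC1A6 at 0 to 0.112 in blastocysts and 13.6 to 22.0 in bESCs. SLC1A3, another carrier of glutamate, had 2.03 to 14.3 in blastocysts and 0.461 to 0.840 in bESCs. None of these 5 SLC1A genes had overlapping values between blastocysts and bESCs. On FPKM, 50.5% of all genes above 0.5 FPKM in at least 2 libraries lay higher in bESCs and 14.7% lower. SLC1A6 passed the limit of reads and FPKM only through the bESC libraries, which largely set its side.

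In the cationic branch, SLC7A1, the general carrier of arginine and lysine (NCBI Gene 539465, chromosome 12, 30934146 to 30996703), had an FPKM of 0.0752 to 1.21 in blastocysts and 25.4 to 40.6 in bESCs, and SLC7A3, which moves the same amino acids, had 0 to 0.257 and 39.1 to 77.8. SLC7A2, the other carrier of this kind, had 0 to 0.160 and 2.42 to 3.25, while SLC7A4 had 11.6 to 87.9 and 0.0780 to 0.228. SLC7A1, SLC7A2 and SLC7A3 thus stood at low levels in the blastocysts and SLC7A4 at a low level in bESCs. SLC7A2 and SLC7A3 passed the limit of reads and FPKM only through bESCs and SLC7A4 only through blastocysts, which largely set their side. Of the light chains, SLC7A5, the exchanger of large neutral amino acids such as leucine, had 4.31 to 15.0 and 15.8 to 36.2, SLC7A6 had 0.623 to 4.43 and 5.56 to 7.04, and SLC7A7, SLC7A8 and SLC7A11 overlapped between the cell types. SLC3A2 also overlapped, at 22.2 to 60.4 in the bESC libraries. SLC3A1, the heavy chain of the renal cystine carrier, had 0 to 0.131 in blastocysts and 1.05 to 2.10 in bESCs, and its light chain SLC7A9 had 0 to 2.04 and 0.181 to 0.449. SLC3A1 passed the limit only through bESCs and SLC7A9 only through blastocysts.

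Among the sodium and chloride driven carriers, the taurine carrier SLC6A6 had an FPKM of 0 to 0.0693 in blastocysts and 18.0 to 22.3 in bESCs, and the creatine carrier SLC6A8 had 4.61 to 21.4 and 53.9 to 57.9. The glycine carrier SLC6A9 was low in both, at 0 to 0.416 and 0.565 to 3.81. SLC6A20, a carrier of proline and related imino acids, lay the other way, at 1.04 to 6.56 in blastocysts and 0.0363 to 0.203 in bESCs. In the SLC38A family, SLC38A2 had 106 to 123 in bESCs, above every blastocyst, and SLC38A1, SLC38A4, SLC38A5 and SLC38A10 were also higher there, with SLC38A5 at 0 to 1.55 in blastocysts and 14.7 to 49.4 in bESCs. SLC38A6 and SLC38A11 were lower in bESCs, at 1.01 to 1.58 and 0.587 to 1.15, than in every blastocyst. Between the control means, SLC38A1 was 29.3 times higher in bESCs on FPKM and 5.33 times in RPM. SLC38A11 was 14.5 and 29.8 times lower on these scales. All 3 SLC43A genes were higher in bESCs on FPKM, SLC43A2 overlapping in RPM, with the nucleobase carrier SLC43A3 at 0.123 to 2.57 in blastocysts and 22.1 to 28.1 in bESCs. SLC36A3 had 1.14 to 6.52 and 0.173 to 0.373, and SLC36A2 had no read in any bESC library. SLC6A6, SLC6A9 and SLC38A4 passed the limit of reads and FPKM only through bESCs, and SLC6A20 and SLC36A3 only through blastocysts. That limit largely set the side of these genes.

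**Figure D2:**
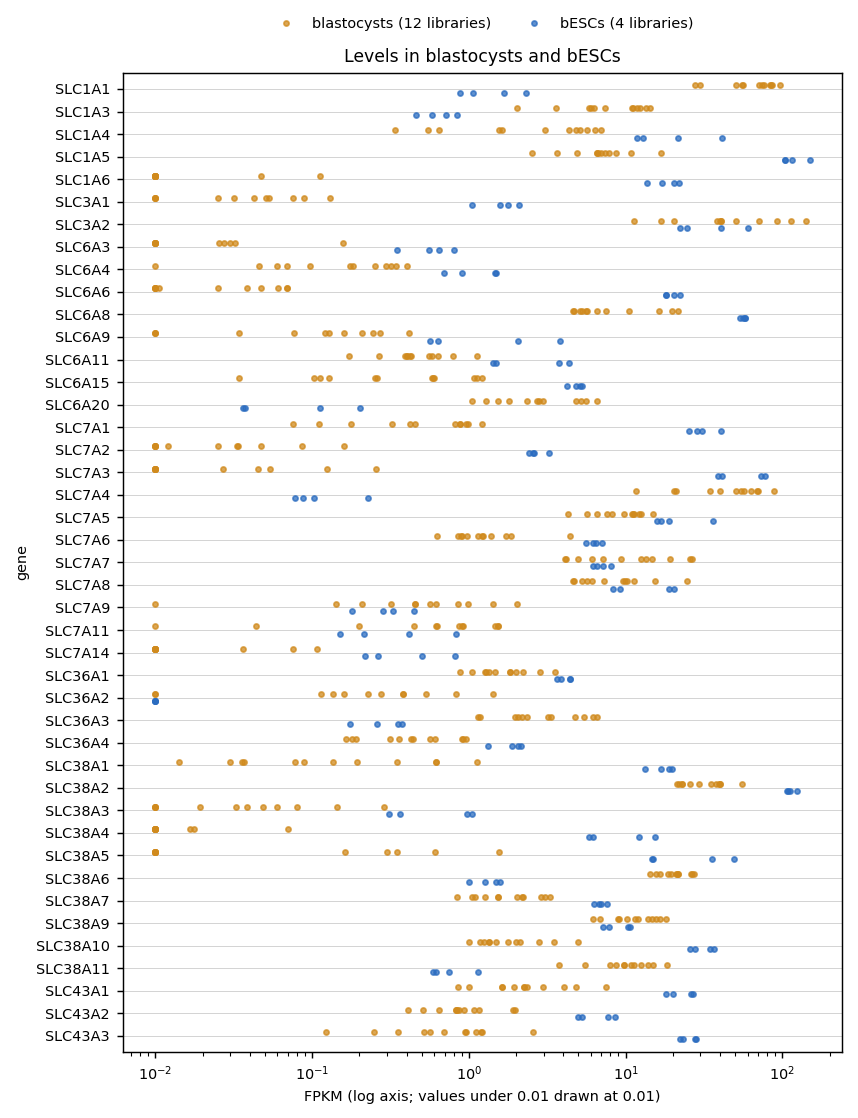
FPKM of 43 of the 44 members (rows) on a log axis, with 1 point for each of the 12 blastocyst libraries and of the 4 bESC libraries, and values under 0.01 drawn at 0.01. For 29 members every bESC point lies right of every blastocyst point, and for 7 members, SLC1A1 and SLC7A4 among them, every bESC point lies left.

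For comparisons between groups of a table, the reads of each library were scaled by the library size that its FPKM imply, to the mean size of the table, and these scaled reads are given as normalized counts. The test was limma on log2(normalized count + 1) over the genes that averaged 10 or more, and a log2 fold change below is the difference on that scale with its standard error (SE). A gene was called higher or lower where its unadjusted p lay under 0.05 with a log2 fold change beyond 1 in either direction, which is named the threshold below, and the Benjamini-Hochberg adjusted p over all tested genes is given beside it. The adjusted p was under 0.05 in limma for 0 members in each of the 5 comparisons, and for none with voom weights on the recovered reads, so every change below is a call at the unadjusted threshold. Of all genes, 0.014% reached that adjusted limit in LY10 against DMSO, 0.0138% in cell2_LY against LY_DMSO and 0% in the other comparisons.

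In the first blastocyst table, embryos cultured with LY10 had more RNA of the heavy chain SLC3A2, of SLC1A1 and SLC1A4, of SLC7A4 and of SLC7A7 than the DMSO embryos, and less of SLC6A15, SLC36A3 and SLC38A1. Of the 44 members 31 were tested, and 8 of them (25.8%) passed the threshold, 5 higher and 3 lower, where 14.7% of the 14249 genes tested did, 6.2% higher and 8.51% lower. Unadjusted p was under 0.05 for 11 members, against 22.9% of all genes, and for 11 also with voom weights. The groups did not overlap for 9 members (29.0%), 5 higher and 4 lower in LY10, against 28.1% of all genes, 13.8% higher and 14.4% lower. The median log2 fold change of the tested members was 0.29, beside -0.05 for all genes.

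SLC3A2 had a normalized count of 450.2, 249.7 and 372 in DMSO and 1117, 2519 and 896 in LY10. Each LY10 embryo lay above each DMSO embryo, with LY10 2 highest, and the log2 fold change was 1.97 (SE 0.40, adjusted p = 0.0783). Of the light chains that join it, SLC7A7, which exchanges cationic for neutral amino acids (NCBI Gene 504220, chromosome 10, 21989650 to 22026918), had 276, 157 and 159 in DMSO and 235, 562 and 519 in LY10. The lowest LY10 embryo lay below the highest DMSO embryo, and the log2 fold change was 1.10 (SE 0.40, adjusted p = 0.157). It fell short of the threshold when DMSO 2, DMSO 3, LY10 2 or LY10 3 was left out. SLC7A5 had 498, 231 and 269 and 458, 463 and 335, with overlapping groups and a log2 fold change of 0.40 (SE 0.34, adjusted p = 0.499). SLC7A6 had 129, 138 and 90.8 and 72.3, 67.0 and 46.6, and its log2 fold change of -0.94 (adjusted p = 0.180) did not pass the limit of size. SLC7A11, the cystine and glutamate exchanger, had 95.5, 0.995 and 20.8 and 46.4, 154 and 161, and SLC7A8 469, 255 and 194 and 236, 218 and 190.3, and neither passed. SLC7A7 was the call among the 5 light chains, and the log2 fold changes of the others had both signs. SLC7A6 lies opposite SLC7A6OS, which overlaps it.

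The FPKM of SLC3A2 divided by the summed FPKM of SLC7A5, SLC7A6, SLC7A7, SLC7A8 and SLC7A11 was 0.609, 0.634 and 0.998 in DMSO and 2.06, 3.37 and 1.42 in LY10. All 3 LY10 embryos lay above all 3 DMSO embryos, with means of 2.28 ± 0.998 and 0.747 ± 0.217 (SD, n = 3 each), and an exact two-sided permutation test gave p = 0.1, the smallest that 3 against 3 allows. The light chain sum itself was 28.9 ± 4.62 FPKM in LY10 and 22.6 ± 9.28 in DMSO (SD, n = 3 each, exact permutation p = 0.3). The SLC3A share of the summed carrier FPKM was 5.99% to 8.98% in DMSO and 14.2% to 25.5% in LY10.

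SLC1A1 had a normalized count of 464, 499 and 857 in DMSO and 1282, 1622 and 926 in LY10. The LY10 embryos all lay above the DMSO embryos, by a log2 fold change of 1.09 (SE 0.32, adjusted p = 0.104), which was 0.93 without DMSO 1, 0.98 without DMSO 2 and 0.90 without LY10 2, under the limit of 1. The gene is overlapped by SPATA6L on the opposite strand. SLC1A4 (NCBI Gene 326577, chromosome 11, 63379682 to 63409620) had 228, 15.9 and 30.6 in DMSO and 206, 328 and 241 in LY10. DMSO 1 lay within the range of LY10 while the other 2 DMSO embryos were far below it, and the log2 fold change was 2.36 (SE 0.83, adjusted p = 0.149). Without DMSO 2, DMSO 3 or LY10 2 its unadjusted p exceeded 0.05 and the call was lost. Of the other 2 tested SLC1A genes, SLC1A5 had a log2 fold change of 0.77 (SE 0.44, adjusted p = 0.323) and SLC1A3 of 0.44 (SE 0.69, adjusted p = 0.731).

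SLC7A4 had a normalized count of 553, 308 and 1067 in DMSO and 1339, 1516 and 913 in LY10. DMSO 3 lay within the range of LY10, and the log2 fold change was 1.11 (SE 0.43, adjusted p = 0.173). The call was lost without DMSO 1, DMSO 2, LY10 1 or LY10 2, and the log2 fold change was 0.68 without DMSO 2. SLC7A1 had 86.9, 7.96 and 18.6 and 101, 104 and 47.9, with overlapping groups and a log2 fold change of 1.69 (SE 0.80, adjusted p = 0.248). SLC7A2 and SLC7A3 were too low to be tested in blastocysts.

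Of the 3 members that fell, SLC38A1, a carrier of glutamine at the plasma membrane (NCBI Gene 527491, chromosome 5, 33921052 to 33999841), had a normalized count of 56.7, 103 and 31.7 in DMSO and 2.73, 3.35 and 1.29 in LY10, which were 73, 104 and 29 reads against 2, 5 and 1. Every LY10 embryo lay far below every DMSO embryo, and the log2 fold change was -4.12 (SE 0.76, adjusted p = 0.0783). With so few reads in LY10 this value depends on the constant added before the logarithm, and it ranged from -4.54 to -3.08 over the alternatives. SLC36A3, of the proton-driven family (NCBI Gene 540844, chromosome 7, 62520734 to 62544639), had 195, 234 and 115 in DMSO and 70.9, 40.9 and 73.8 in LY10. Again no values overlapped, and the log2 fold change was -1.52 (SE 0.41, adjusted p = 0.0936). The gene LOC132345774 overlaps SLC36A3. SLC6A15, a carrier of branched-chain amino acids and proline (NCBI Gene 281952, chromosome 5, 14498982 to 14556193), had 43.5, 48.7 and 24.1 in DMSO and 1.36, 10.1 and 10.4 in LY10, with all LY10 embryos lower and a log2 fold change of -2.52 (SE 0.82, adjusted p = 0.130). Without DMSO 2 its unadjusted p was 0.0505, just past the limit. SLC38A1, SLC36A3 and SLC3A2 were the LY10 calls that held in every alternative in which they were tested.

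The other carriers tested in this table did not pass. SLC38A2 had a normalized count of 1316, 1111 and 1505 in DMSO and 1163, 2002 and 2029 in LY10, with overlapping groups. SLC38A9 had 819.7, 635 and 840.2 and 1111, 1367 and 1061, and here all LY10 embryos were above all DMSO embryos, by a log2 fold change of 0.63 (SE 0.23, adjusted p = 0.156). SLC43A1, a carrier of large neutral amino acids, reached 1.00 (adjusted p = 0.175), a size just under the limit before rounding. SLC6A8 had 408, 490.4 and 116 in DMSO, where DMSO 3 was low, and 115, 131 and 185 in LY10. Its log2 fold change was -1.02 (SE 0.53, adjusted p = 0.282), and without DMSO 3 it was -1.66 with an adjusted p of 0.0215. SLC6A20 had 179, 310.4 and 469 and 262, 827 and 221, a spread within LY10 wider than the distance between the groups. By family, SLC1A had 2 of 4 tested members higher, SLC3A 1 of 1 and SLC7A 2 of 8, while SLC6A had 1 of 5, SLC36A 1 of 3 and SLC38A 1 of 7 lower, and SLC43A had 0 of 3 in either direction.

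**Figure D3:**
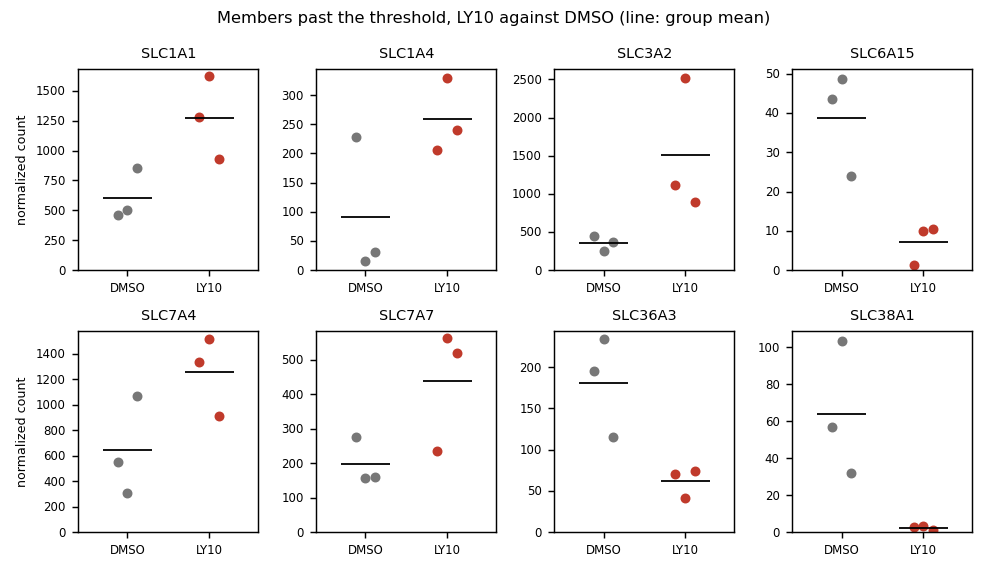
Normalized counts of the 8 members past the threshold in LY10 against DMSO, with 1 point per embryo (3 DMSO in grey, 3 LY10 in red) and a line at each group mean. SLC1A1, SLC3A2, SLC6A15, SLC36A3 and SLC38A1 show no overlap between the groups, while 1 DMSO embryo reaches the LY10 range for SLC1A4, SLC7A4 and SLC7A7.

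Other genes that handle amino acids moved in the same embryos. Of 24 tested genes of the amino acid response that the factor ATF4 drives, 9 were higher and 1 lower in LY10, where 6.2% and 8.51% of all genes were. PSAT1 and PHGDH, which make serine, had log2 fold changes of 3.30 (adjusted p = 0.0783) and 2.35 (adjusted p = 0.0783), ALDH1L2, of the mitochondrial folate cycle, had 2.07 (adjusted p = 0.0711), and DDIT3, a stress factor, had -1.54 (adjusted p = 0.0783). Its median log2 fold change was 0.64. Of 23 genes of amino acid synthesis and conversion, 3 were higher, ARG2 (1.64), ASL (1.71) and PYCR1 (1.73), and the glycine cleavage gene GLDC was lower (-2.33). Of 34 genes that sense amino acids at the lysosome 5 were higher and 2 lower, with MLST8 (1.83), a subunit of mTORC1, among the former and LAMTOR5 (-1.14), which anchors the complex, among the latter. Of 15 tested genes in a list of carriers outside the 7 families, SFXN2 (2.37) and the mitochondrial aspartate carrier SLC25A12 (1.72) were higher and none was lower. That list also holds SLC7A6OS, the gene opposite SLC7A6, which is not itself a carrier.

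Markers of cell types also differed between these groups. Of 9 tested epiblast markers 2 were higher in LY10, POU5F1 (1.23) among them, and the hypoblast markers HNF4A (3.31), PDGFRA (3.74) and COL4A2 (2.84) were higher, 3 of 8 tested. Of all genes 6.2% were higher and 8.51% lower. A negative log2 fold change was seen in 3 epiblast markers, down to -1.16 for LIN28A, and in 3 hypoblast markers, down to -1.54 for RSPO3. Of 14 trophectoderm markers 0 passed in either direction. Of 7 tested fibroblast markers 4 were lower, and the summed FPKM of the list was 163 to 262 in DMSO and 45.4 to 82.2 in LY10, with no marker at 0 in all libraries of a group. The cumulus marker HSD3B1 (1 of 7) and the oocyte marker OOEP (1 of 3) were lower, with summed FPKM of 23.7 to 61.8 and 10.8 to 28.7 for the cumulus list and 233 to 312 and 92.4 to 239 for the oocyte list in DMSO and LY10. In the cumulus list 3 of 7 markers had a positive log2 fold change, up to 1.59 for INHBA, and in the oocyte list 1 of 3. The part of these markers in the carrier results was not tested.

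In the second blastocyst table, embryos exposed from the 2-cell stage had more RNA of SLC36A1, SLC36A4, SLC38A10, SLC43A1, SLC43A2 and SLC7A4 than the LY_DMSO embryos, and less of SLC3A2, SLC38A9 and SLC38A11. Of 33 tested members 9 (27.3%) passed the threshold, 6 higher and 3 lower, where 17% of the 14529 genes tested did, 8.71% higher and 8.34% lower. Unadjusted p was under 0.05 for 10 members, against 24.6% of all genes, and for 9 with voom weights. The 2 embryos of each group did not overlap for 14 members (42.4%), 7 in each direction, against 53.7% of all genes, 26.9% in each direction. The median log2 fold change of the members was 0.05, and of all genes 0.00.

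SLC3A2 had a normalized count of 2929 and 4473 in LY_DMSO and 1291 and 1267 in cell2_LY, so both exposed embryos lay below both vehicle embryos. The log2 fold change was -1.50 (SE 0.35, adjusted p = 0.0782), and this call held in every alternative. Its ratio to the 5 light chains was 1.96 and 3.44 in LY_DMSO and 0.667 and 1.36 in cell2_LY (exact two-sided permutation p = 0.333, the smallest that 2 against 2 allows). None of the light chains passed: SLC7A5 had 573 and 642 against 874 and 737, and SLC7A11 91.7 and 134 against 229 and 93.7. SLC7A4 had 2074 and 769.8 in LY_DMSO and 3344 and 2412 in cell2_LY, where both embryos lay above LY_DMSO 1 and far above LY_DMSO 2. The log2 fold change was 1.17 (SE 0.43, adjusted p = 0.153), and it was 0.45 without LY_DMSO 2 and 0.93 without cell2_LY 1, neither of which passed.

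SLC36A1 (NCBI Gene 518759, chromosome 7, 62623596 to 62720884) had a normalized count of 316 and 218 in LY_DMSO and 886 and 710.2 in cell2_LY, with no overlap and a log2 fold change of 1.59 (SE 0.31, adjusted p = 0.0711). The genes FAT2 and BERV-K1 overlap it, and the call held in every alternative. SLC36A4 (NCBI Gene 616864, chromosome 29, 1701573 to 1743386), a relative with high affinity for proline and tryptophan, had 15.8 and 14.8 and 76.4 and 29.6, with no overlap and a log2 fold change of 1.58 (SE 0.67, adjusted p = 0.192). Its p exceeded 0.05 in 9 alternatives, those without LY_DMSO 2 and without cell2_LY 1 among them, and the log2 fold change without cell2_LY 1 was 0.91. SLC38A9 (NCBI Gene 534045, chromosome 20, 23441411 to 23542902) had 2196 and 2391 and 821 and 1339, lower in both exposed embryos, with a log2 fold change of -1.13 (SE 0.29, adjusted p = 0.0880). It was -0.84 after quantile normalization, -0.90 with library sizes taken from the reads on genes, and -0.78 without cell2_LY 1, all short of the limit of 1.

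SLC38A10 (NCBI Gene 509536, chromosome 19, 51437161 to 51478790), a carrier of glutamine, glutamate and aspartate, had a normalized count of 106 and 71.2 in LY_DMSO and 353 and 248 in cell2_LY. Both exposed embryos were above both vehicle embryos, and the log2 fold change of 1.76 (SE 0.40, adjusted p = 0.0782) held in every alternative. SLC38A11 (NCBI Gene 523418, chromosome 2, 31290079 to 31350209), of the same family, had 714 and 1052 and 312 and 455, lower in both exposed embryos, with a log2 fold change of -1.20 (SE 0.34, adjusted p = 0.1000). That value was -0.97 with the reads on genes as library size, -0.92 without LY_DMSO 2 and -0.93 without cell2_LY 1. SLC38A2 had 4022 and 2745 and 2554 and 1558, lower in both exposed embryos, and its log2 fold change of -0.74 (SE 0.37, adjusted p = 0.262) did not pass. Of the 7 SLC38A genes tested, 1 was higher and 2 were lower.

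The carriers of large neutral amino acids SLC43A1 (NCBI Gene 614153, chromosome 15, 80743589 to 80774019) and SLC43A2 (NCBI Gene 511955, chromosome 19, 22686352 to 22731664) both rose. SLC43A1 had a normalized count of 224 and 63.8 in LY_DMSO and 568 and 361 in cell2_LY, and SLC43A2 had 68.6 and 157 and 265 and 257. In each case both exposed embryos were above both vehicle embryos, with log2 fold changes of 1.91 (SE 0.57, adjusted p = 0.104) and 1.32 (SE 0.46, adjusted p = 0.135). The vehicle embryos were far apart in opposite order, LY_DMSO 2 being the lower for SLC43A1 and LY_DMSO 1 for SLC43A2. Without LY_DMSO 2 the SLC43A1 value was 1.01 with an unadjusted p of 0.0529 from limma, without cell2_LY 1 it was 1.58 and its call was lost in both, and the SLC43A2 value without LY_DMSO 1 was 0.73. The call of SLC43A2 was also lost without either cell2_LY embryo. The third member of the family, SLC43A3, had 47.3 and 13.9 and 100.5 and 37.5 and did not pass.

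Embryos exposed from the 16-cell stage were compared with the same 2 LY_DMSO embryos, so this comparison and the preceding comparison share their controls. They had more RNA of SLC7A4 and SLC36A4 and less of SLC1A3, SLC1A4, SLC3A2 and SLC7A1. Of 33 tested members 6 (18.2%) passed the threshold, 2 higher and 4 lower, where 5.22% of all genes did, 3.25% higher and 1.97% lower. Unadjusted p was under 0.05 for 9 members, against 7.62% of all genes, and for 8 with voom weights, and the smallest adjusted p of a member was 0.557. The groups did not overlap for 15 members (45.5%), 6 higher and 9 lower, against 42.9% of all genes, 20.9% higher and 22% lower. Leaving out cell16_LY 1 removed all 6 calls. The median log2 fold change was -0.26, beside -0.01 for all genes.

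SLC1A3 (NCBI Gene 282354, chromosome 20, 37571910 to 37652390) had a normalized count of 698 and 663 in LY_DMSO and 215 and 437 in cell16_LY, and SLC1A4 had 434 and 207 and 37.2 and 105. Both exposed embryos lay below both vehicle embryos for each gene, with log2 fold changes of -1.15 (SE 0.37, adjusted p = 0.577) and -2.24 (SE 0.71, adjusted p = 0.557). SLC3A2 had 1219 and 2267 in cell16_LY, also below both vehicle embryos, with a log2 fold change of -1.12 (SE 0.35, adjusted p = 0.557). Its ratio to the light chains was 1.51 and 1.55 (exact two-sided permutation p = 0.333, the smallest possible). SLC7A1 had 133 and 132 in LY_DMSO and 16.7 and 64.1 in cell16_LY, with no overlap and a log2 fold change of -1.98 (SE 0.78, adjusted p = 0.620). SLC7A1 is overlapped by LOC107132982. Its call was also lost without either vehicle embryo, that of SLC3A2 without LY_DMSO 2, and those of SLC1A3 and SLC1A4 without LY_DMSO 1. In all 4 genes cell16_LY 1 was the lower of the 2 exposed embryos.

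SLC36A4 had a normalized count of 79.0 and 50.2 in cell16_LY, above both vehicle embryos, with a log2 fold change of 1.98 (SE 0.67, adjusted p = 0.589). SLC7A4 had 2606 and 2678, with a log2 fold change of 1.06 (SE 0.43, adjusted p = 0.620) that was 0.35 without LY_DMSO 2. Its p also rose above 0.05 with the compared groups alone and without either embryo of cell16_LY or cell2_LY. Of the members that did not pass, SLC7A5 had 252 and 443, lower than both vehicle embryos by a log2 fold change of -0.86 (SE 0.34, adjusted p = 0.620), SLC36A1 had 495 and 456 and SLC38A10 had 199.9 and 150.5, both above the vehicle embryos at log2 fold changes of 0.85 and 0.99. By family, SLC1A had 2 of 4 tested members lower, SLC3A 1 of 1 and SLC7A 1 of 8, SLC7A and SLC36A had 1 each higher, and SLC6A, SLC38A and SLC43A had none.

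The exposures were also compared with each other, which tests whether the start at the 16-cell stage differed from the start at the 2-cell stage. Of 33 members 4 (12.1%) passed, all lower in cell16_LY, where 11.3% of all genes passed, 5.58% higher and 5.77% lower, so the share of members was near that of the genes in general. Unadjusted p was under 0.05 for 7 members, against 17.9% of all genes, and for 7 with voom weights. The groups did not overlap for 13 members (39.4%), 3 higher and 10 lower in cell16_LY, against 54.5% of all genes, 28.2% higher and 26.3% lower. SLC7A5 (NCBI Gene 282369, chromosome 18, 13298159 to 13326788) had a normalized count of 874 and 737 in cell2_LY and 252 and 443 in cell16_LY, with a log2 fold change of -1.26 (SE 0.34, adjusted p = 0.193). SLC1A4 had 381 and 109 and 37.2 and 105, with a log2 fold change of -1.69 (SE 0.71, adjusted p = 0.263). For SLC7A5 the groups lay well apart, while for SLC1A4 cell2_LY 2 and cell16_LY 2 were close to each other. SLC43A1 had 568 and 361 and 147 and 169, and SLC43A2 had 265 and 257 and 126 and 112, with log2 fold changes of -1.52 (SE 0.57, adjusted p = 0.233) and -1.13 (SE 0.46, adjusted p = 0.256). Without cell16_LY 1 none of the 4 passed, and without cell2_LY 1 only SLC7A5 of them did. SLC3A2, SLC7A4 and SLC36A4 did not differ past the threshold between the starts, with log2 fold changes of 0.38, -0.10 and 0.39 (standard errors 0.35, 0.43 and 0.67).

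**Figure D4:**
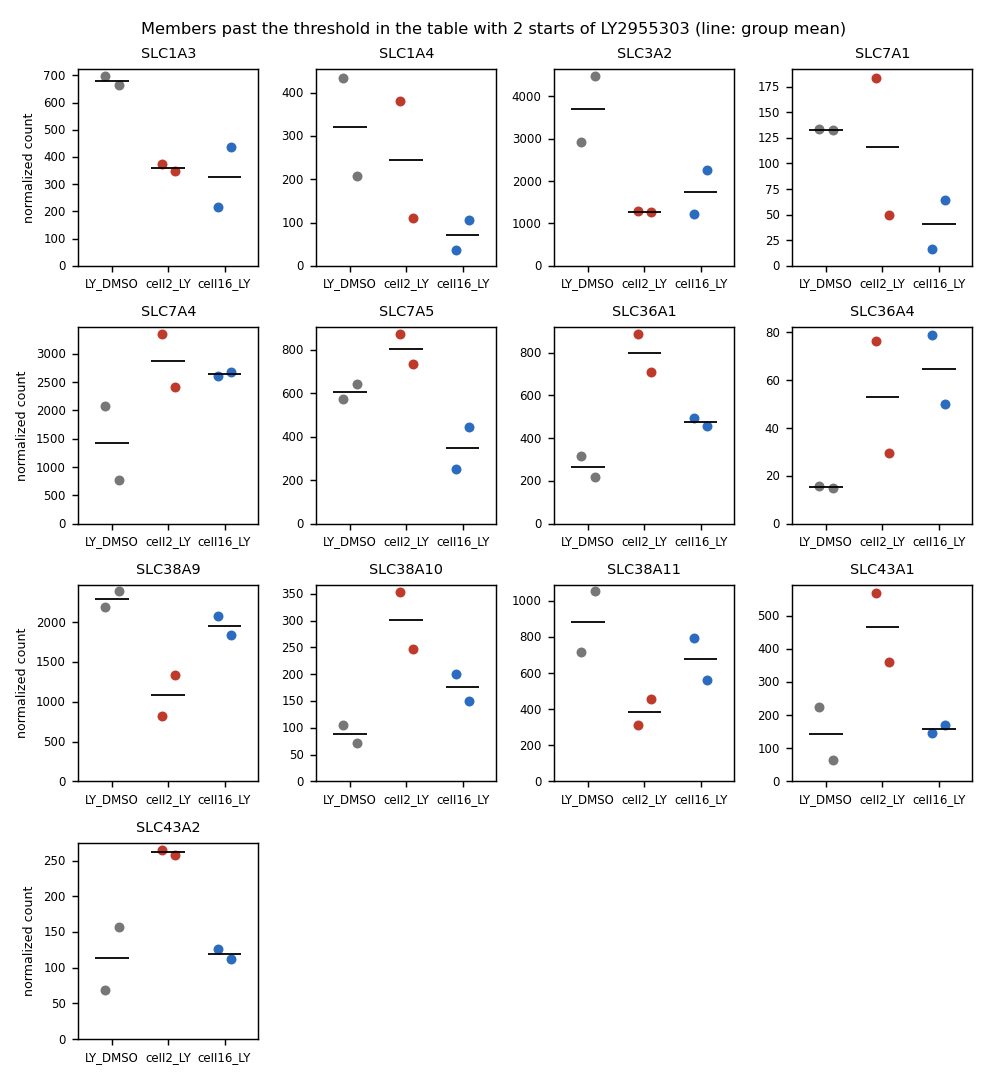
Normalized counts of the members past the threshold in any comparison of the second blastocyst table, with 1 point per embryo (2 each of LY_DMSO in grey, cell2_LY in red and cell16_LY in blue) and a line at each group mean. SLC36A1 and SLC38A10 are highest in cell2_LY, SLC3A2 is highest in LY_DMSO, and the LY_DMSO embryos lie far apart for SLC7A4 and SLC43A1.

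In the wider amino acid lists of the second table, the ATF4 list had 1 gene higher and 3 lower of 25 in cell2_LY, CHAC1 (-3.38), which breaks down glutathione, ASNS (-1.15), which makes asparagine, and CTH (-1.01) being the lower ones and the stress factor ATF3 (1.21) the higher, where 8.71% of all genes were higher and 8.34% lower. In cell16_LY 0 were higher and 4 lower, CHAC1 (-3.35), ATF4 (-1.13), TRIB3 (-1.47) and ASNS (-1.02), where 3.25% of all genes were higher and 1.97% lower. Of 25 genes of amino acid synthesis and conversion, 4 were lower in cell2_LY, GOT1 (-1.77), ARG2 (-1.47), OAT (-1.19) and AMT (-1.13), and AMT (-1.56) was lower in cell16_LY. Of 34 lysosomal sensing genes 2 were higher and 2 lower in cell2_LY, FLCN (1.83) and CASTOR2 (1.31) against LARS1 (-1.47) and MLST8 (-1.18), and none passed in cell16_LY. Of 15 genes in the list of other carriers 2 were higher and 2 lower in cell2_LY and none passed in cell16_LY. Among the lower was SLC7A6OS (-1.86), which is not itself a carrier. Between the starts, the ATF4 list had 2 of 25 genes lower in cell16_LY, SESN2 (-1.26) and JDP2 (-1.40), and synthesis had 1 higher and 1 lower of 25. Lysosomal sensing had 1 higher and 4 lower of 34. The list of other carriers had 1 higher, SLC7A6OS (1.43), and 2 lower of 15. Of all genes 5.58% were higher and 5.77% lower between the starts. In cell2_LY and between the starts these counts were a few genes a list, and those of the ATF4 list in cell2_LY, 4 of 25, were near the 17% of all genes called.

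Cell type markers moved here too. In cell2_LY 4 of 15 trophectoderm markers were higher, CDX2 (2.78), GATA2 (1.99), PAG11 (2.29) and KRT19 (1.85), the hypoblast marker PDGFRA (-2.01) and the oocyte marker DPPA3 (-1.59) were lower, and the cumulus marker STAR (1.23) was higher. Of all genes 8.71% were higher there and 8.34% lower. Positive log2 fold changes were held by 14 of 15 trophectoderm, 4 of 8 hypoblast, 1 of 4 oocyte and 4 of 4 cumulus markers. In cell16_LY PAG11 (5.31), IFNT2 (3.36) and KRT19 (2.31) were higher, 3 of 15, as was the cumulus marker CYP11A1 (2.33). Of all genes 3.25% were higher there, and 12 of 15 trophectoderm and 3 of 4 cumulus markers had positive log2 fold changes. No epiblast or fibroblast marker passed against LY_DMSO in either group. Between the starts, where SLC1A4, SLC7A5, SLC43A1 and SLC43A2 were lower in cell16_LY, the trophectoderm markers GATA2 (-1.94) and CDX2 (-1.84) were also lower there and PAG11 (3.02) and IFNT2 (2.87) higher, 4 of 15, and the epiblast marker DNMT3B (-1.05) was lower, 1 of 9, while no hypoblast, cumulus, oocyte or fibroblast marker passed. The summed trophectoderm FPKM was 4721 to 5922 in LY_DMSO, 6353 to 9121 in cell2_LY and 6652 to 8172 in cell16_LY, the summed cumulus FPKM 12.4 to 39.3, 24.3 to 85.4 and 34.4 to 113, and the summed oocyte FPKM 215 to 251, 73.7 to 92.0 and 103 to 145. The part of these markers in the carrier results was not tested.

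Set side by side, 18 of the 33 members tested in blastocysts (54.5%) passed in at least 1 of the comparisons, against 32.5% of the 15759 genes tested there, and 17 (51.5%) passed against a vehicle, where 29% of the genes did. A gene tested in 1 blastocyst table alone had fewer comparisons in which it could pass. Both tables tested 31 of the 33 members and 13019 of the 15759 genes, so these shares are not fully alike. SLC7A4 was called higher in each of the blastocyst comparisons with a vehicle, at log2 fold changes of 1.11, 1.17 and 1.06 in LY10, cell2_LY and cell16_LY. The cell2_LY and cell16_LY values share LY_DMSO 2, the embryo lowest in SLC7A4, without which neither passed. SLC3A2 was called in opposite directions, 1.97 in LY10 against -1.50 in cell2_LY and -1.12 in cell16_LY, and so was SLC1A4, 2.36 in LY10 against -2.24 in cell16_LY. These are 2 of 31 members (6.45%) tested in both tables, where 2.02% of 13019 genes were called in LY10 and the other way in cell2_LY or cell16_LY. On FPKM, SLC3A2 was 50.4, 114 and 40.4 in LY10 and 40.7 and 39.9 in cell2_LY, while the vehicle embryos had 20.3, 11.3 and 16.8 in the first table and 92.3 and 141 in the second. The LY10 and cell2_LY ranges met only at their edge, where cell2_LY 1 (40.7) lay just above LY10 3 (40.4). LY10 1 and LY10 2 lay above both cell2_LY embryos. The vehicle ranges did not overlap. The tables were normalized separately, so this carries no test. The members SLC38A1 and SLC36A3, low in LY10, had 4.63 and 80.4 and 121 and 319.7 normalized counts in LY_DMSO and 25.1 and 17.8 and 60.1 and 171 in cell2_LY, with SLC38A1 at log2 fold changes of 0.05 and -0.84 and SLC36A3 at -0.95 and -0.26 in cell2_LY and cell16_LY. None of these passed. In all, 11 members were too low to be tested in any blastocyst comparison.

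Several members lie next to each other, and a call in 1 member did not come with a call in its neighbour in the pairs given here. A missing call does not show that neighbours moved apart. SLC38A4 was too low to be tested in blastocysts, and SLC36A2 averaged 6.55 normalized counts in cell2_LY and 11.6 in LY_DMSO. SLC36A3, SLC36A2 and SLC36A1 lie on chromosome 7 with gaps of 13.7 kb and 38.7 kb. In cell2_LY against LY_DMSO, SLC36A1 was called higher while SLC36A3 and SLC36A2 had log2 fold changes of -0.95 and -1.26, and in bESCs SLC36A2 had no read while SLC36A1 had an FPKM of 3.67 to 4.44. SLC38A2 and SLC38A1 lie 55.8 kb apart on chromosome 5, with SLC38A4 364.7 kb from SLC38A2. In LY10, where SLC38A1 fell, SLC38A2 had a log2 fold change of 0.37, and SLC38A4 was at 0 to 0.0704 FPKM over the blastocysts. SLC43A3 and SLC43A1 lie 51.1 kb apart on chromosome 15, with log2 fold changes of -1.28 and 1.00 in LY10 and of 1.22 and 1.91 in cell2_LY.

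In bESCs, LY2955303 gave no call among the carriers. Of 42 tested members 0 passed the threshold in either direction, where 0.0749% of the 16012 genes tested did, 0.0375% in each direction, and 0 had an unadjusted p under 0.05 in limma or with voom weights, against 0.0999% of all genes in limma. The median log2 fold change of the members was 0.06, beside -0.01 for all genes. The groups did not overlap for 5 members (11.9%), SLC1A3, SLC6A8, SLC38A2 and SLC38A7 being higher and SLC3A1 lower with LY2955303, against 14.2% of all genes, 6.83% higher and 7.36% lower. SLC1A5 had a normalized count of 10793 and 9656 in bESC_tifx and 13951 and 9743 in bESC_LY, and SLC38A2 had 15544 and 15815 and 18008 and 16286. SLC6A8 had 3999 and 3840.2 and 4119.9 and 4105, and SLC3A1 155 and 130.3 and 77.3 and 116. The log2 fold changes of these 4 genes were 0.19, 0.13, 0.07 and -0.58, with standard errors of 0.22, 0.13, 0.13 and 0.35. Over all 42 members the log2 fold changes ran from -0.62 for SLC7A4 to 0.57 for SLC1A3, and for many members the libraries of 1 group lay further apart than the group means. None of the ATF4, synthesis, lysosomal sensing or other carrier genes passed either.

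The larger spread in bESCs lay between the libraries numbered 2 and 3, numbers that occur in both groups, and the labels do not say what a number stands for. The values are therefore a description with no test. Of the 42 members 24 (57.1%) were higher in both libraries numbered 2 than in both numbered 3, against 37.1% of all genes, and 9 (21.4%) were lower, against 36.7%. Mean normalized counts differed by more than 2 times in 11 members (26.2%), all higher in number 2, while 5.54% of all genes were that much higher and 6.90% that much lower. The glycine carrier SLC6A9 had a normalized count of 234 and 433 in the libraries numbered 2 against 64.2 and 71.7 in those numbered 3. SLC38A5, a carrier of glutamine and glycine, had 2526 and 3501 in the libraries numbered 2 against 1042 and 1059.9 in those numbered 3. SLC1A4 had 2947 and 5621 in the libraries numbered 2 against 1759 and 1602 in those numbered 3, and SLC3A2 had 2710.0 and 4057 in the libraries numbered 2 against 1646 and 1494 in those numbered 3. In all 4 genes both libraries numbered 2 were above both numbered 3, by 4.90, 2.87, 2.55 and 2.16 times, and in each of them bESC_LY 2 was the highest library. The other 7 were SLC7A11, SLC38A3, SLC6A11, SLC7A14, SLC38A4, SLC7A8 and SLC1A1. SLC6A4 was lowest in number 2 relative to number 3, with 80.4 and 62.5 in the libraries numbered 2 against 131 and 134 in those numbered 3, and SLC43A1 and SLC43A2 were also lower in number 2. SLC6A8 and SLC38A2 differed by 1.02 and 1.05 times between the numbers.

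Of 27 genes of the ATF4 list, 24 were higher in both libraries numbered 2 and 14 differed by more than 2 times, and of 6 tested hypoblast markers 3 were lower in number 2 by more than 2 times. Of 12 trophectoderm markers 4 were higher in number 2 by more than 2 times and 4 lower, of 9 epiblast, 7 fibroblast and 2 oocyte markers 1 each was higher and 0 lower, and of 4 cumulus markers 1 was lower and 0 higher. Summed hypoblast FPKM was 57.4 to 192 in bESC_LY and 60.2 to 192 in bESC_tifx, and summed fibroblast FPKM was 72.5 to 75.7 in all 4 libraries. The part of these markers in the carrier values was not tested.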

How the data were processed

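RNA sequencing was analysed for 12 single blastocysts and 4 bESC libraries. The submitters' processing notes name HISAT2 2.0.5, featureCounts 1.5.0-p3, StringTie 1.3.3b and DESeq2 1.20.0, the methods also name STAR, and the genome build is not given in the sources used here. The authors deposited FPKM under the name of normalized counts, beside fold changes and p-values from their own DESeq2 comparison, which were not used. FPKM multiplied by counted length fell on whole reads for 100% of values within 0.02 reads. These reads were scaled from each library size implied by the FPKM to the geometric mean of those sizes in the table (10651692, 15246235 and 30547774), which gave normalized counts.

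The test was limma 3.58.1 (lmFit and eBayes with a trend, R 4.3.3), run for genes averaging 10 or more, on log2(normalized count + 1), with the 3 groups of the second blastocyst table in 1 fit. Count tests were not used because the deposited unit is FPKM, and voom on the recovered reads was an alternative. Ratios were compared by an exact permutation test in scipy 1.17.1, and the fit was tested on simulated data. The blastocyst libraries are separate embryos, and their p-values measure the spread between embryos. Values from 1 library carry counting error only where reads are few: 3 reads, the limit for a count of 0, were at most 4.09, 3.50 and 3.18 normalized counts in the tables.

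Named with values were members past the threshold, the 6 highest by mean FPKM in each table, and SLC3A1, SLC3A2, SLC7A5, SLC7A11, SLC7A1, SLC1A5, SLC38A2, SLC38A9, SLC6A14, SLC6A9 and SLC6A20 by role, and other members were added after their values were seen. Of other lists, at most 4 genes past the threshold were named. The members, the lists and the tests were chosen with earlier results of these data known. Alternatives were a pseudocount of 5, no filter on low counts, a mean of 50 or more, scaling by TMM or quantiles, voom, the replicate number as a block, the compared groups alone, each library left out, and, chosen after seeing the data, the reads on genes as library size. Sequences were not used here. Values of 1 member and 1 marker gene are not reported here, and both remain in the counts.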

Additional observations from a re-analysis of the deposited data

Results flagged for a closer look

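In the second blastocyst table, 4 members differed between the start of exposure at the 16-cell stage and that at the 2-cell stage by limma's test of cell16_LY against cell2_LY itself, at the unadjusted threshold. The log2 fold changes were -1.69 for SLC1A4, -1.26 for SLC7A5, -1.52 for SLC43A1 and -1.13 for SLC43A2, and each gene was lower in both cell16_LY embryos than in both cell2_LY embryos. Their adjusted p-values from limma were 0.263, 0.193, 0.233 and 0.256. The trophectoderm markers GATA2 (-1.94), CDX2 (-1.84), PAG11 (3.02) and IFNT2 (2.87) differed between the same embryos, and their part in these values was not tested.

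For 4 members every LY10 embryo lay on 1 side of the DMSO embryos and every cell2_LY embryo on the opposite side of the LY_DMSO embryos, although both exposures began at the 2-cell stage. The log2 fold changes in LY10 and in cell2_LY were 1.09 and -0.38 for SLC1A1, 1.97 and -1.50 for SLC3A2, 0.95 and -0.53 for SLC6A11, and 0.63 and -1.13 for SLC38A9. These differences between the tables were not tested. They are 4 of the 31 members tested in both tables (12.9%), where 9.78% of 13019 genes lay on opposite sides in this way, so the share of members was near that of the genes in general. SLC1A1 and SLC3A2 passed the threshold in LY10, SLC3A2 and SLC38A9 passed it in cell2_LY, and SLC6A11 passed in neither.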

How the results depend on the processing

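The 27 calls of single members were recomputed under 393 alternative values in all, of which 327 kept the direction and the threshold, 66 kept the direction only, 55 of these with a library left out, and 0 reversed. In every alternative 6 calls held, SLC3A2, SLC36A3 and SLC38A1 in LY10 and SLC3A2, SLC36A1 and SLC38A10 in cell2_LY. Counts of calls moved with the filter: 8 members were higher in LY10 with no filter, and with a mean of at least 50, which leaves fewer genes, 1 was lower in LY10 and 1 higher in cell16_LY. With the reads on genes as library size 1 member was lower in cell2_LY, a scaling that moved the median of all genes to 0.23 there and to -0.17 between the starts. With the compared groups alone 1 member was higher in cell16_LY, and after quantile normalization 2 were lower in cell16_LY against cell2_LY. With 1 library left out, the members higher in LY10 ran from 1 (without DMSO 2 or LY10 2) to 6, and those lower from 2 to 6 (without DMSO 3). In cell2_LY the higher ran from 3 (without LY_DMSO 2 or cell2_LY 1) to 6 and the lower from 2 to 5 (without LY_DMSO 1). In cell16_LY the higher ran from 0 (without cell16_LY 1) to 5 (without LY_DMSO 1), with 1 without LY_DMSO 2, cell16_LY 2 or either cell2_LY embryo, and the lower from 0 (without cell16_LY 1) to 6, with 2 without LY_DMSO 2. Between the starts the higher ran from 0 to 3 (3 without cell2_LY 2, 2 without cell2_LY 1, 1 without cell16_LY 2) and the lower from 0 (without cell16_LY 1) to 6, with 1 without cell2_LY 1. In bESCs the higher ran from 0 to 3 (without bESC_LY 3), and the lower stayed at 0. A group left with 1 library is assumed to vary like the others. Without DMSO 3, 6 members had an adjusted p under 0.05 in limma, SLC1A1, SLC3A2, SLC6A8, SLC7A4, SLC36A3 and SLC38A1, and without cell2_LY 2 SLC36A1 and SLC38A9 did. The cause of these shifts was not tested.

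Deviations of same-numbered embryos correlated at -0.117, 0.168 and -0.0997 in the first blastocyst table, within the range of differently numbered embryos (-0.230 to 0.271). In the second blastocyst table they correlated between -0.232 and 0.121, but 2 libraries a group cannot show a pairing. With the replicate number as a block, the counts of members called stayed within 1.5 times those without it. In bESCs the same numbers correlated at 0.789, the labels do not say what they mark, and 2 libraries a number cannot show a pairing. There the block left 0 members past the threshold, as before, while 4 had an adjusted p under 0.05 in limma, SLC1A4, SLC1A5, SLC7A1 and SLC7A5, at log2 fold changes of 0.40, 0.19, 0.29 and 0.42, and 116 of all genes did, against 0 without it. That fit has 1 residual degree of freedom, and the prior degrees of freedom that limma estimated were infinite. The spread of each gene was thus set by the trend over all genes, so these adjusted p-values do not measure a gene's own spread between libraries. For SLC1A4 and SLC7A5 bESC_LY was above bESC_tifx in number 2 and below it in number 3.

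The number of members was 31 with at least 2 passing libraries in each blastocyst table taken alone, 38 in the bESC table alone, and 52 with 10 reads as the sole limit.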
